A study of Mus musculus with 6 samples.

Results

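The 77 genes described here encode the collagens, the laminins, the integrins and fibronectin, as transcribed in the adult mouse testis. They are the protein-coding genes of the GRCm38 mouse genome with a symbol that starts with Col, Lama, Lamb or Lamc plus a digit, or with Itga or Itgb plus a digit or a letter, together with Fn1, and that had at least 10 counts in at least 2 libraries. The symbols matched 88 genes, of which 2 were left out by name, 3 by their position on chromosome 4 and 6 for low counts. The 77 are 40 collagen genes, 11 laminin chain genes, 21 integrin chain genes (15 alpha and 6 beta chains), Fn1, and 4 genes that the symbols match although they encode no subunit of these proteins. All 77 were among the 20744 genes tested, out of 55536 genes in the deposited table.

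Collagens are built from chains in which glycine recurs with a period of 3 residues, so that the chains can wind into a triple helix. Fibrillar collagens make the load-bearing fibrils of connective tissue, FACIT collagens (fibril-associated collagens with interrupted triple helices) decorate those fibrils, and collagen IV forms the sheet of basement membranes. Laminins are cross-shaped trimers of an alpha, a beta and a gamma chain and form the other sheet of a basement membrane. Integrins are alpha-beta pairs in the plasma membrane that bind these proteins and fibronectin and link them to the actin cytoskeleton. In the testis, the seminiferous tubule is wrapped by a basement membrane laid down by Sertoli and peritubular myoid cells, and connective tissue surrounds the Leydig cells and vessels between tubules.

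The study asked how loss of the peptidylarginine deiminases PAD2 and PAD4, enzymes that convert arginine residues of proteins to citrulline, affects male reproduction. Polyadenylated RNA from whole testes of 4-month-old mice was sequenced as strand-specific libraries, with 2 mice and 2 libraries for each of 3 genotypes: WT (FVB/NJ), P2KO and DKO. P2KO mice carry a gene trap with LacZ and neomycin sequence in exon 1 of Padi2. DKO mice carry that same Padi2 allele and, in addition, a short CRISPR/Cas9 deletion in exon 1 of Padi4 that was made in P2KO embryos; the line descends from 1 founder backcrossed to P2KO. All mice had an FVB/NJ background, and both knockouts were kept as homozygous inbred lines, so P2KO and DKO share the Padi2 allele and WT differs from both in line as well as in genotype.

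The libraries held from 21939393 to 27306679 counts on genes, and TMM scaling factors lay between 0.984 and 1.02. Padi2 had 47 and 64 counts in WT, 100 and 55 in P2KO, and 59 and 83 in DKO, so it does not check the labels; Padi4 had 20 and 43 counts in WT, 11 and 10 in P2KO, and 4 in each DKO library. The tissue label was checked against marker genes of testis cells. All 7 Sertoli and all 6 Leydig, 6 myoid, 6 spermatocyte and 6 round spermatid markers were tested and none was at 0, while the 6 epididymis markers summed to 0.157 to 0.601 CPM (counts scaled to library size) per kilobase of exon. In whole testis, fewer cells of a type and less RNA per cell cannot be told apart.

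The triple-helix repeat that defines collagens can be read in the coding sequence as codons of the form GGN, which encode glycine, recurring with the same period. The 4 genes below are those that passed the test between genotypes. For each gene the GENCODE M21 protein-coding transcript with the longest complete coding sequence was read. Each line shows 30 codons from the start of its longest unbroken repeat, 5′ to 3′ on the coding strand, with capitals marking the glycine codons.

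Col22a1: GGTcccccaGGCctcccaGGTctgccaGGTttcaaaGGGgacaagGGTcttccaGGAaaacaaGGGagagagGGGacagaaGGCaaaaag
Col2a1: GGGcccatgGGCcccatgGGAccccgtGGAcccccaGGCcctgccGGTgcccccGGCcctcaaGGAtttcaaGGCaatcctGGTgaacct
Col12a1: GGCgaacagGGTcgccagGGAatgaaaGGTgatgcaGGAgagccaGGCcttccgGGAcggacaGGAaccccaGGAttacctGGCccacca
Col1a2: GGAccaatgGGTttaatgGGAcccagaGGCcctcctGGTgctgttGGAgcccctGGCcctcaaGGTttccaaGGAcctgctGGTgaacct

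Col22a1 (chr15:71795795-72034227, minus strand, codons 1107 to 1136 shown) encodes the FACIT collagen XXII, known from tissue junctions such as that of muscle and tendon. Col2a1 (chr15:97975602-98004695, minus strand, codons 201 to 230) encodes the fibrillar collagen II, the main collagen of cartilage. Col12a1 (chr9:79598991-79718831, minus strand, codons 2805 to 2834) encodes the FACIT collagen XII, and Col1a2 (chr6:4504814-4541544, plus strand, codons 97 to 126) encodes the alpha-2 chain of collagen I, the main fibrillar collagen of connective tissue. The positions are those of GRCm38. The interruptions that define FACIT collagens show in the length of the unbroken repeat. It ran for 339 triplets of codons in both Col2a1 and Col1a2, but for 113 in Col22a1 and 32 in Col12a1. Over all 11 fibrillar members the longest unbroken repeat was 216 to 344 triplets, over the 7 FACIT members 32 to 113, and over the 7 network-forming members 39 to 66. The 2 multiplexin genes had 30 triplets each, the 4 transmembrane collagens 40 to 56, and the collagen VI family and other collagens 23 to 87.

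**Figure D1:**
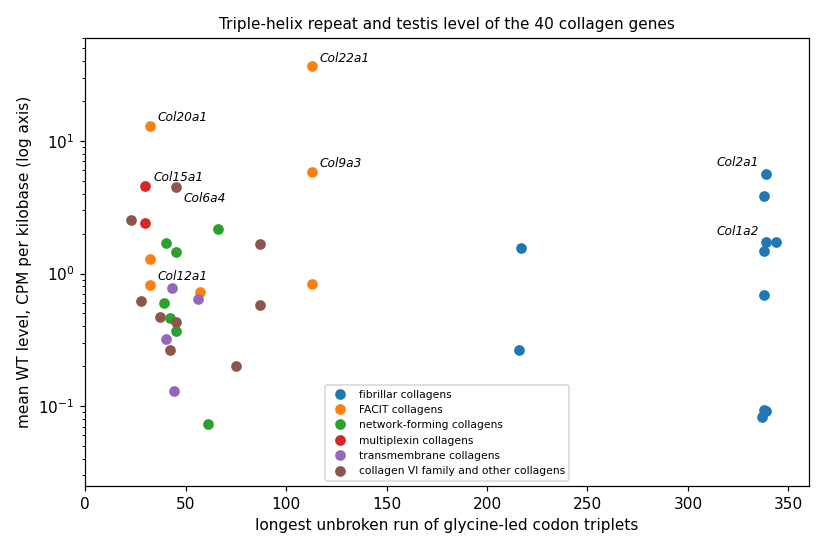
Each of the 40 collagen genes is placed by the longest unbroken run of glycine-led codon triplets in its coding sequence (x axis, triplets) and its mean level in the 2 WT libraries (y axis, CPM per kilobase, log axis), coloured by structural group. Fibrillar collagens lie to the right, from 216 triplets upward, at levels from 0.0822 to 5.62, while Col22a1, with 113 triplets, stands highest at 36.4.

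Levels were compared between genes as CPM per kilobase of merged exons, so that long genes do not appear high for their length alone. Col22a1 was the most abundant member, at 36.4 ± 3.15 in WT (SD, n = 2). In the WT libraries it took 41.9 and 39.8% of the counts on the 40 collagen members, without correction for gene length. Next among the collagens were Col20a1, another FACIT collagen, at 13.0 ± 0.537, then Col9a3, a chain of the FACIT collagen IX, at 5.84 ± 0.724 and Col2a1 at 5.62 ± 0.379. Col9a3 and Col2a1 were not separated by their WT libraries. Thus 3 of the 4 most abundant collagen genes were FACIT collagens. The main connective-tissue collagens stood lower, with Col3a1, the chain of collagen III, at 1.73 ± 0.0764, Col1a2 at 1.72 ± 0.0396 and Col1a1 at 1.48 ± 0.174.

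Among fibrillar collagens the lowest was Col5a3 at 0.0822 ± 0.0458, and among FACIT collagens Col19a1 at 0.722 ± 0.0404. Of the network-forming collagens, Col4a2, a chain of the ubiquitous basement-membrane collagen IV trimer, was highest at 2.18 ± 0.302 and Col8a1 lowest at 0.0737 ± 0.00476. Col15a1 and Col18a1, the multiplexins of basement-membrane zones, were at 4.61 ± 0.267 and 2.39 ± 0.372. The transmembrane collagens ran from 0.129 ± 0.0433 (Col13a1) to 0.773 ± 0.0410 (Col23a1). The collagen VI family and the remaining collagens ran from 0.199 ± 0.00377 (Col7a1, of the anchoring fibrils under epithelia) to 4.53 ± 0.0392 (Col6a4).

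Among laminins, Lama1 was the highest alpha chain at 1.84 ± 0.143, Lamb2 the highest beta chain at 4.09 ± 0.0894 and Lamc3 the highest gamma chain at 2.90 ± 0.382. The lowest alpha chain was Lama4 at 0.256 ± 0.00103, and the lowest beta chain Lamb3 at 1.23 ± 0.202. Fn1, the gene of fibronectin, was at 1.56 ± 0.263.

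Integrin levels were uneven between partners. Itgb1, the beta chain shared by most matrix-binding integrins, was at 10.9 ± 0.220 and did not differ from Itgb5, the partner of the alpha-v chain, at 10.7 ± 1.07, while Itgb8 was lowest among beta chains at 0.143 ± 0.0383. Itgae, the alpha-E chain, reached 14.9 ± 0.0422 with 1490 to 1865 counts per library, whereas Itgb7, its partner chain, had 5 to 7 counts and was not a member. Itgad, an alpha chain of leukocyte integrins, was at 3.34 ± 0.0272, and Itgb2, the partner it needs, at 0.296 ± 0.0358. For Itgad, 330 exon bases are shared with Gm17831 on the same strand and 560 with genes on the other strand, and Itgb2 has a near-identical copy in Gm14699, so both levels are uncertain. Among alpha chains that bind collagen or laminin the level ran from 0.159 ± 0.0503 (Itga10) to 1.67 ± 0.145 (Itga7, a laminin receptor of muscle), among those that bind the RGD motif from 0.256 ± 0.00581 (Itga5) to 0.557 ± 0.0265 (Itgav), and the lowest leukocyte-type chain was Itgax at 0.159 ± 0.0586. The genes that encode no subunit included Itgb1bp1, a cytoplasmic binding partner of Itgb1, at 17.0 ± 0.467, and Itgbl1 was the lowest of those 4 at 1.55 ± 0.229.

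**Figure D2:**
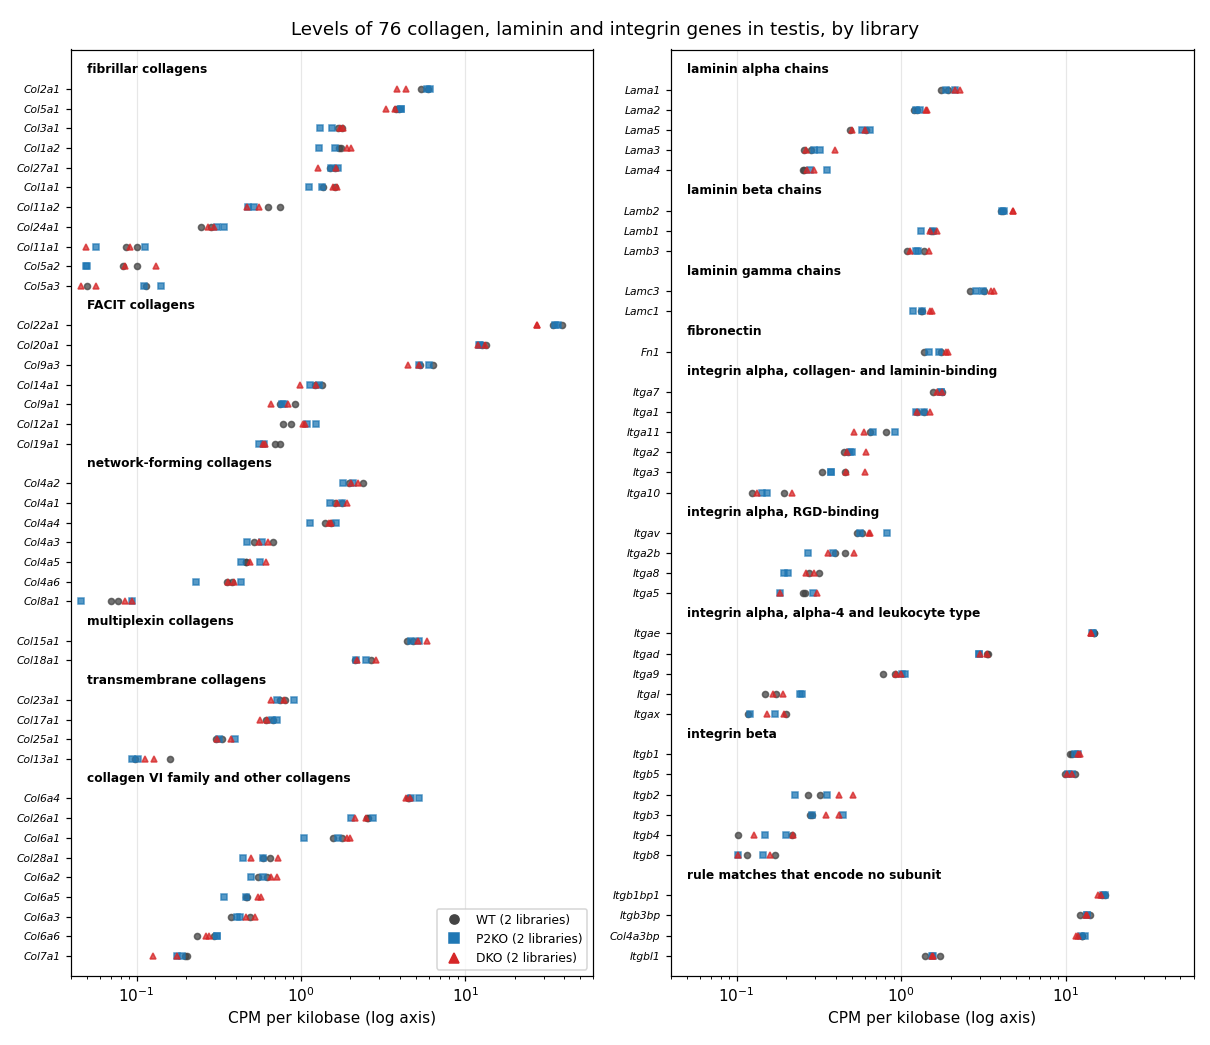
Level of each of 76 of the 77 genes in each of the 6 libraries, in CPM per kilobase (log axis), grouped by role and ordered within a role by the WT mean; circles are WT, squares P2KO and triangles DKO. Most genes differ between one another far more than between genotypes, and the DKO triangles stand to the left of the other libraries for Col22a1 and Col2a1.

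As a set these were long genes at low level. Their median merged-exon length was 7368 bases, against 4197 over the 15622 protein-coding genes tested, and their median WT level was 0.82 against 3.51 CPM per kilobase. A WT level of at least 1 was found for 36 members, 46.8%, against 72.6% of tested protein-coding genes, and 8 members reached at least 10. The 77 genes lie on 20 chromosomes. Of the 77, 26 share exon bases with another annotated gene, 6 on the same strand and 21 on the other. A transcript of another gene was near-identical to part of 5 members (Col4a3bp, Itgb2, Itgb3bp, Itgb5 and Lama2). For Col4a3bp and Lama2 that gene was Gm48133 and Gm48084, which overlap them on the other strand and so are not copies elsewhere. Shared bases and near-identical transcripts make these counts less certain.

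Between genotypes, few of the 77 genes moved. A gene was called where the quasi-likelihood test of edgeR gave it an adjusted p (Benjamini-Hochberg, over all genes tested) under 0.05. By this rule 1 of the 77 changed in P2KO against WT, Col12a1, which was higher. That is 1.3% of members beside 0.337% of all genes tested (0.198% higher, 0.14% lower). In DKO against WT 2 members changed, Col22a1 and Col2a1, both lower, or 2.6% of members beside 3.22% of all genes (2.06% higher, 1.16% lower). In DKO against P2KO 3 changed, with Col1a2 higher and Col2a1 and Col22a1 lower, or 3.9% beside 1.21% of all genes (0.607% higher, 0.598% lower). All 4 genes are collagens; none of the 11 laminin chains, the 21 integrin chains or Fn1 passed the test in any comparison. Each genotype enters 2 of the 3 comparisons, so a gene called in 2 of them was measured with shared libraries.

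**Figure D3:**
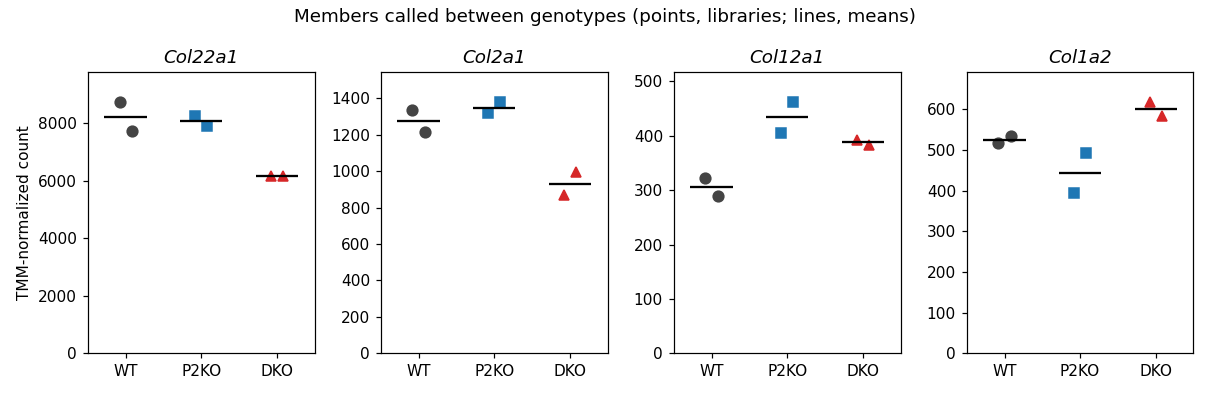
TMM-normalized counts of the 4 genes that passed the test, with 1 point per library (2 per genotype) and a line at each genotype's mean; each y axis starts at 0. Both DKO points lie below all other points for Col22a1 and Col2a1, both WT points lie lowest for Col12a1, and both DKO points lie highest for Col1a2.

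Col22a1, the collagen member with the largest share of counts, was lower in DKO. Normalized counts were 8729.5 and 7724.1 in WT, 8253.3 and 7896.0 in P2KO, and 6154.4 and 6169.2 in DKO. The DKO libraries lay below all 4 others, and WT and P2KO overlapped. Col22a1 was 1.335-fold lower in DKO than in WT (log2 fold change -0.42, SE 0.0602, adjusted p = 1.48e-05) and 1.311-fold lower than in P2KO (-0.39, SE 0.0601, adjusted p = 8.3e-05), while P2KO against WT gave -0.03 (SE 0.0598, adjusted p = 0.950). Its share of the counts on the 40 collagen members was 35.5 and 33.9% in DKO, against 41.5 and 40% in P2KO and the WT shares given above. The summed level of the 40 collagens was 107 and 99.7 in WT, 101 and 100 in P2KO, and 89.3 and 94.6 in DKO, in CPM per kilobase. Without Col22a1 the sums were 67.9 and 65.4 in WT, 64.9 and 65.2 in P2KO, and 62.1 and 67.3 in DKO. The DKO sums then overlapped those of WT and P2KO, while both P2KO sums lay just below both WT sums.

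Col2a1 was also lowest in DKO. Its normalized counts were 1336.1 and 1214.5 in WT, 1316.3 and 1378.6 in P2KO, and 866.89 and 992.33 in DKO, again with both DKO libraries below the rest. It was 1.372-fold lower in DKO than in WT (log2 fold change -0.46, SE 0.0790, adjusted p = 0.000247) and 1.45-fold lower than in P2KO (-0.54, SE 0.0785, adjusted p = 3.46e-05), and P2KO against WT gave 0.08 (SE 0.0766, adjusted p = 0.841). Collagen II is best known from cartilage, so markers of cartilage were read beside it. Acan, the cartilage proteoglycan, had 8 to 15 counts per library and Hapln1, its link protein, 0 to 5. Comp had 8139 to 10009 counts and Epyc 474 to 621. Cnmd, the gene of chondromodulin, had normalized counts of 42.8 and 45.4 in WT, 55.0 and 44.7 in P2KO, and 34.5 and 28.6 in DKO, lowest in DKO, and gave -0.48 in DKO against WT (SE 0.278, adjusted p = 0.471) and -0.66 in DKO against P2KO (SE 0.270, adjusted p = 0.290). The abundant markers did not share that direction in DKO against P2KO, where Comp gave 0.15 (SE 0.0556, adjusted p = 0.217) and Epyc 0.05 (SE 0.0949, adjusted p = 0.908). In DKO against WT Comp gave 0.01, Epyc -0.11 and Acan -0.39, with adjusted p from 0.688 to 0.977. The 5 cartilage markers summed to 128 to 145 CPM per kilobase over the 6 libraries, and 0 of the 4 tested passed the test in any comparison; their part in the Col2a1 result was not tested.

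Col22a1 and Col2a1 both lie on chromosome 15. Within 1 Mb of Col22a1, 0 of 3 other tested genes passed the test in either DKO comparison. Within 1 Mb of Col2a1, 1 of 42 did in DKO against WT (Kmt2d) and 0 of 42 in DKO against P2KO. Of the 826 tested genes of chromosome 15, 24 (2.91%) were called in DKO against WT.

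The FACIT collagens other than Col22a1 did not pass the test in DKO against WT. With Col22a1 included, 6 of the 7 had a negative log2 fold change, with a median of -0.20, and Col12a1 was the positive one. In P2KO against WT, which shares the WT libraries, the split was also 6 of 7 negative, with a median of -0.077. Col9a3 gave -0.27 in DKO against WT (SE 0.105, adjusted p = 0.200), which became -0.146 without WT replicate 1 (adjusted p = 0.638), -0.167 without DKO replicate 1 (adjusted p = 0.695) and -0.395 without WT replicate 2 (adjusted p = 0.0459). Col11a2, a chain of the fibrillar collagen XI, gave -0.41 (SE 0.185, adjusted p = 0.287). Col11a2 had normalized counts of 126 and 106 in WT, 86.9 and 80.9 in P2KO, and 93.9 and 79.5 in DKO, so that the WT libraries lay above all others and P2KO and DKO overlapped. Col20a1, the second most abundant collagen, gave -0.05 in DKO against WT (SE 0.0702, adjusted p = 0.843) with overlapping libraries.

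Col12a1 was the exception among FACIT collagens and the only member called in P2KO against WT. Its normalized counts were 323 and 289.75 in WT, 405 and 462 in P2KO, and 393 and 383 in DKO. Both knockout genotypes lay above WT and DKO lay below P2KO. It was 1.415-fold higher in P2KO than in WT (log2 fold change 0.50, SE 0.110, adjusted p = 0.0228), and the DKO against WT value was 0.34 (SE 0.111, adjusted p = 0.0904). The P2KO call depended on 1 library on each side: the adjusted p was 0.272 without WT replicate 2 and 0.463 without P2KO replicate 2, and no call remained under DESeq2 (adjusted p = 0.243 on all 6 libraries). DKO against P2KO gave -0.16 (SE 0.107, adjusted p = 0.599), and ran from -0.253 to -0.0559 with single libraries left out. None of the 12 tested genes within 1 Mb of Col12a1 was called.

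The interstitial collagens Col1a1, Col1a2 and Col3a1 were lowest in P2KO. Col1a2 had normalized counts of 517 and 534 in WT, 394 and 492 in P2KO, and 618 and 583 in DKO. The 3 genotypes did not overlap, with P2KO lowest and DKO highest. Col1a2 was 1.363-fold higher in DKO than in P2KO (log2 fold change 0.45, SE 0.101, adjusted p = 0.0125), and neither P2KO against WT (-0.25, SE 0.102, adjusted p = 0.452) nor DKO against WT (0.19, adjusted p = 0.386) passed. P2KO replicate 1 was the lower of its pair for all 3 genes, and without it the Col1a2 value fell to 0.29 (adjusted p = 0.429); the call was also lost without DKO replicate 1 (0.40, adjusted p = 0.217) or DKO replicate 2 (0.49, adjusted p = 0.0826).

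Col1a1 had normalized counts of 219 and 258 in WT, 181 and 216 in P2KO, and 252 and 267 in DKO, and Col3a1 404 and 430.45, 314 and 372, and 415 and 433. For both genes P2KO lay below WT and DKO, which overlapped. In DKO against P2KO, Col1a1 gave 0.39 (SE 0.133, adjusted p = 0.168) and Col3a1 0.31 (SE 0.108, adjusted p = 0.185), and in P2KO against WT -0.28 (adjusted p = 0.578) and -0.29 (adjusted p = 0.395). Without P2KO replicate 1 the P2KO against WT values were -0.147 for Col1a1, -0.17 for Col3a1 and -0.0965 for Col1a2, and without P2KO replicate 2 they were -0.407, -0.416 and -0.42. Col1a1 was also -0.146 without WT replicate 2, and no value was called. In DKO against P2KO, Col1a1 was 0.263 and Col3a1 0.189 without P2KO replicate 1. The summed level of the 3 genes was 4.73 and 5.14 in WT, 3.72 and 4.50 in P2KO, and 5.31 and 5.37 CPM per kilobase in DKO. Markers of peritubular myoid cells, a source of these collagens, summed to 24.98 and 27.6 in WT, 23.4 and 24.96 in P2KO and 29.2 and 25.4 in DKO. None of the 6 was at 0, and 0 of 6 were called. In P2KO against WT 1 of the 6 was positive (median -0.15), and in DKO against P2KO 4 of the 6 were (median 0.13). In DKO against WT 4 of the 6 were positive (median 0.076). The part of these markers in the result was not tested.

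Among the remaining fibrillar genes Col5a1 gave -0.22 in DKO against P2KO (SE 0.0836, adjusted p = 0.237). Col5a2 and Col5a3 held the widest values of all members in that comparison, 1.11 (SE 0.411, adjusted p = 0.220) and -1.27 (SE 0.480, adjusted p = 0.234), at mean counts of only 19.3 and 14.3 per library. Fibrillar collagens did not share 1 direction, with 5 of 11 positive and 6 negative in each of the 3 comparisons.

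**Figure D4:**
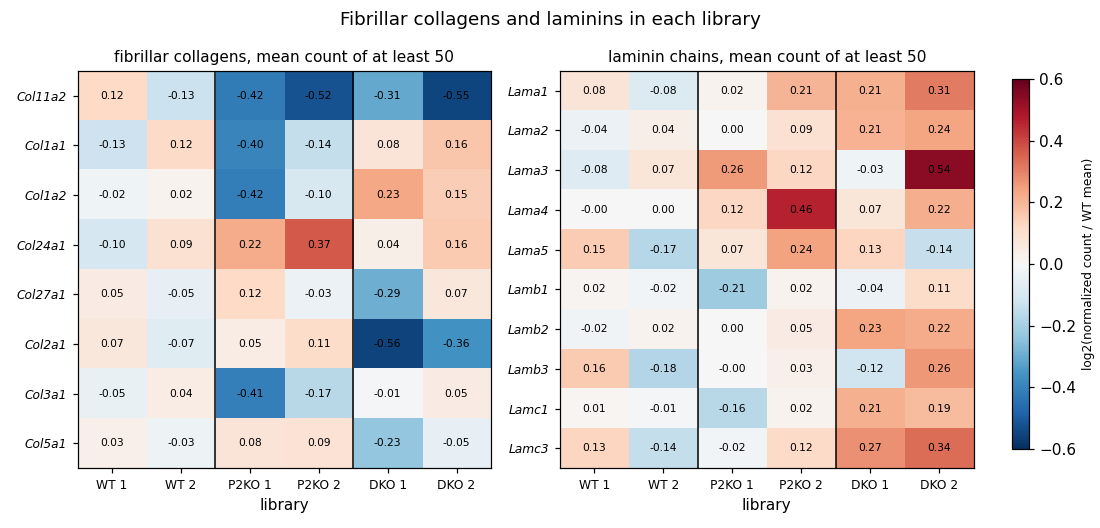
Log2 ratio of each library's normalized count to the WT mean (colour and printed value) for the 8 fibrillar collagens (left) and 10 laminin chains (right) with a mean of at least 50 counts, with 2 columns per genotype. Col1a1, Col1a2 and Col3a1 are lowest in P2KO, Col2a1 is lowest in DKO, and Lamb2, Lama2, Lamc1 and Lamc3 are highest in both DKO columns.

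The classical collagen VI chains Col6a1, Col6a2 and Col6a3 gave positive values in DKO against P2KO, and none was called. Col6a1 had normalized counts of 192 and 168 in WT, 112 and 179.91 in P2KO, and 204 and 214 in DKO, and the 2 P2KO libraries differed more than any other pair. DKO lay above both other genotypes, at 0.54 against P2KO (SE 0.163, adjusted p = 0.109). Without P2KO replicate 2, the higher of that pair, the value was 0.91 (adjusted p = 0.00626), and without P2KO replicate 1 it was 0.22 (adjusted p = 0.786). Col6a2 gave 0.34 (SE 0.165, adjusted p = 0.404) and Col6a3 0.24 (SE 0.164, adjusted p = 0.606). The other chains went both ways. Col6a5 gave 0.49 (SE 0.178, adjusted p = 0.217), while Col6a4, the most abundant, gave -0.13 and Col6a6 -0.18 (SE 0.217, adjusted p = 0.81).

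The network-forming collagens, 6 chains of collagen IV and Col8a1, had 0 calls. All 7 gave positive values in DKO against P2KO, from 0.12 to 0.38, but their DKO and P2KO libraries overlapped in every case. In P2KO against WT 6 of 7 were negative, with a median of -0.11. Both patterns rested on P2KO replicate 1: without it, 3 of 7 were positive in DKO against P2KO (median -0.027) and 5 of 7 were positive in P2KO against WT (median 0.17). Col15a1 gave 0.25 in DKO against WT (SE 0.0870, adjusted p = 0.118) and Col18a1 0.09. The 4 transmembrane collagens lay between -0.11 and 0.11 in DKO against WT.

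All 11 laminin chains gave positive log2 fold changes in DKO against WT, from 0.01 to 0.31 with a median of 0.20, and 0 of the 11 passed the test. Over all genes tested the median was -0.0048. Lamc3, the gamma-3 chain, had normalized counts of 474 and 393 in WT, 429 and 470.54 in P2KO, and 525 and 548 in DKO, and gave 0.31 (SE 0.102, adjusted p = 0.0961). Lamb2, a beta chain of basement membranes, had 600.4 and 619 in WT, 610.2 and 630.2 in P2KO, and 717 and 711 in DKO, and gave 0.23 (SE 0.0859, adjusted p = 0.174). DKO lay above both other genotypes for each of them. Lama1 gave 0.26 (SE 0.101, adjusted p = 0.182) and Lama2 0.22 (SE 0.0932, adjusted p = 0.248).

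The summed laminin level was 15.9 and 14.9 in WT, 15.2 and 16.4 in P2KO, and 17.4 and 18.2 CPM per kilobase in DKO, so the DKO libraries lay above the rest. With an offset that removes the trend of fold change with gene length, 9 of the 11 laminins were positive, from -0.095 to 0.27 with a median of 0.08, and with upper-quartile scaling 10 of the 11. With single libraries left out, 8 to 11 were positive. In P2KO against WT, which shares the WT libraries, 9 of the 11 were positive with all libraries (median 0.056). In DKO against P2KO it was 8 of the 11 (median 0.13). Markers of Sertoli cells summed to 349 and 332 in WT, 341 and 357 in P2KO, and 347 and 306 in DKO, with 0 of 7 called. Of the 6 Leydig cell markers, Star (0.51, adjusted p = 0.000159), Cyp17a1 (0.31, adjusted p = 0.0193) and Cyp11a1 (0.28, adjusted p = 0.0324) were higher in DKO than in WT, while Lhcgr gave -0.38 (adjusted p = 0.128), Insl3 0.04 (adjusted p = 0.956) and Hsd17b3 0.08 (adjusted p = 0.759). Thus 5 of the 6 Leydig markers were positive, with a median of 0.18. The 6 summed to 212 and 204 in WT, 242 and 216 in P2KO, and 283 and 225 in DKO. Endothelial markers gave 5 of 5 positive values in DKO against WT, with a median of 0.43 and 0 called, led by the receptor genes Kdr (0.66, adjusted p = 0.0849) and Tek (0.57, adjusted p = 0.315). The 6 endothelial markers, none at 0, summed to 2.53 and 2.80 in WT, 2.88 and 2.76 in P2KO, and 3.32 and 3.07 in DKO, so DKO was highest, as for the laminins. Of the 6 elongating spermatid markers, none at 0, 5 were negative in DKO against WT with a median of -0.14, and Prm1 (-0.22, adjusted p = 0.0302) and Tnp1 (-0.25, adjusted p = 0.013) were lower. They summed to 21070 and 21920 in WT, 17710 and 19740 in P2KO, and 19190 and 19350 in DKO, so both knockouts lay below WT. The part of these cell types in the laminin values was not tested.

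Fn1 had normalized counts of 500.18 and 393 in WT, 421 and 489 in P2KO, and 535 and 551 in DKO. DKO lay above both other genotypes, which overlapped. The log2 fold change was 0.29 in DKO against WT (SE 0.107, adjusted p = 0.163) and 0.26 in DKO against P2KO (SE 0.106, adjusted p = 0.291). Without WT replicate 1, the higher of its pair, DKO against WT was 0.46 (adjusted p = 0.00914), and Lamc3 was then called as well (0.44, adjusted p = 0.0133). Without WT replicate 2, Fn1 was 0.12 (adjusted p = 0.861) and Lamc3 0.18 (adjusted p = 0.724). In DKO against P2KO Fn1 was 0.151 without P2KO replicate 1 and 0.373 without P2KO replicate 2.

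Integrin chains had 0 calls, and the most abundant of them differed little. Itgb1 had normalized counts of 1071.3 and 1102.5 in WT, 1142.4 and 1192.3 in P2KO, and 1188.7 and 1233.0 in DKO. Both knockouts lay above WT and overlapped each other, with 0.15 in DKO against WT (SE 0.0734, adjusted p = 0.327) and 0.10 in P2KO against WT (SE 0.0734, adjusted p = 0.764). Itgb5 gave -0.01 (SE 0.0822, adjusted p = 0.977) and Itgae -0.06 (SE 0.0671, adjusted p = 0.798) in DKO against WT. Of the 21 integrin chains, 14 were positive in DKO against WT, with a median of 0.14. With the gene-length offset 12 were positive, and only 10 were without WT replicate 2, with a median of -0.0096.

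Among integrin chains of at least 50 counts, the widest values came from the less abundant matrix receptors. Itga3, an alpha chain that pairs with Itgb1 to bind laminin, had normalized counts of 64.2 and 46.3 in WT, 52.3 and 52.2 in P2KO, and 65.1 and 84.8 in DKO, and gave 0.45 in DKO against WT (SE 0.230, adjusted p = 0.381) and 0.51 in DKO against P2KO (SE 0.230, adjusted p = 0.351). Itga11, a collagen receptor, had 81.1 and 102 in WT, 85.2 and 115 in P2KO, and 65.1 and 75.3 in DKO, and gave -0.50 in DKO against P2KO (SE 0.204, adjusted p = 0.284). DKO was highest for Itga3 and lowest for Itga11 without passing the test. In P2KO against WT, Itgav gave 0.30 (SE 0.159, adjusted p = 0.607), Itga9 0.30 (SE 0.143, adjusted p = 0.572) and Itga2b -0.37 (SE 0.255, adjusted p = 0.744), beside -0.34 for the FACIT gene Col19a1 (SE 0.173, adjusted p = 0.6). These integrin values moved with single libraries. Leaving out 1 library took Itga3 from 0.217 (without WT replicate 2) to 0.684 (without WT replicate 1) in DKO against WT, and from 0.318 (without DKO replicate 2) to 0.694 in DKO against P2KO. It took Itga11 from -0.714 (without P2KO replicate 1) to -0.274 (without P2KO replicate 2) in DKO against P2KO. In P2KO against WT it took Itgav from 0.015 (without P2KO replicate 2) to 0.561 (without P2KO replicate 1), Itga2b from -0.66 (without P2KO replicate 1) to -0.158 (without P2KO replicate 2) and Itga9 from 0.179 (without WT replicate 2) to 0.413, and none was called.

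**Figure D5:**
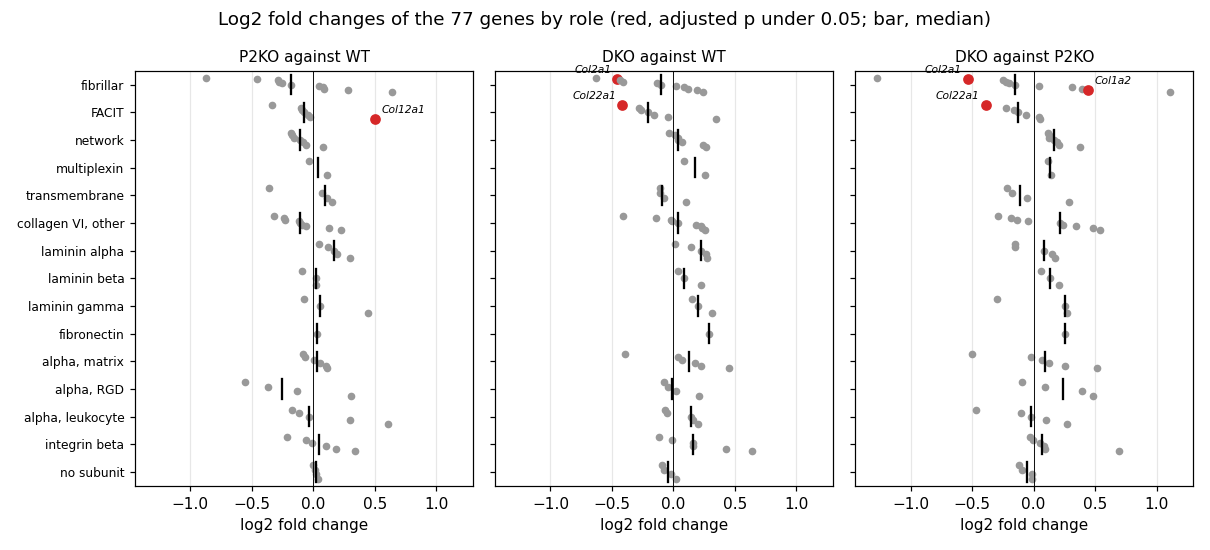
Log2 fold change of each of the 77 genes in the 3 comparisons, by role, with a bar at the median of each role and red points for genes with adjusted p under 0.05. The red points are Col12a1 in P2KO against WT (0.50), Col2a1 (-0.46) and Col22a1 (-0.42) in DKO against WT, and Col2a1 (-0.54), Col22a1 (-0.39) and Col1a2 (0.45) in DKO against P2KO.

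Over the 77 genes, 36 were positive and 41 negative in P2KO against WT, with a median log2 fold change of -0.026 against 0.0035 over all genes tested. The split was 47 and 30 in DKO against WT (median 0.04 against -0.0048) and 44 and 33 in DKO against P2KO (0.066 against -0.0028). With the gene-length offset the number positive in DKO against WT was 37 in place of 47, and the median -0.017. Single libraries also turned these medians. Without WT replicate 2 the DKO against WT median was -0.0096 with 36 positive, and without DKO replicate 2 the DKO against P2KO median was -0.024 with 36 positive. The P2KO against WT median was 0.037 with 47 positive without P2KO replicate 1 and 0.018 with 42 positive without WT replicate 1. Libraries did not overlap for 25 members (32.5%) in P2KO against WT beside 37.5% of all genes, for 33 (42.9%) in DKO against WT beside 43.2%, and for 37 (48.1%) in DKO against P2KO beside 42.8%. At an unadjusted p under 0.05 there were 8 members (10.4% beside 8.57% of all genes), 12 (15.6% beside 14.1%) and 19 (24.7% beside 11.8%) in the same order. In DKO against P2KO, 7 of those 19 were fibrillar collagens, in both directions.

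The enzymes that process collagens, the other matrix genes and the adhesion adaptors give the setting of these changes. Of 30 tested genes of matrix processing outside the left-out interval of chromosome 4, 0 were called in P2KO against WT, 1 in DKO against WT and 2 in DKO against P2KO, all higher. Adamts2, the protease that trims the amino end of procollagens, had normalized counts of 106 and 75.9 in WT, 80.7 and 94.7 in P2KO, and 153 and 139.94 in DKO, and was higher in DKO than in WT (log2 fold change 0.70, SE 0.181, adjusted p = 0.0196) and than in P2KO (0.75, SE 0.181, adjusted p = 0.0245). Pcolce, which enhances trimming of the carboxyl end, had normalized counts of 1251.6 and 1321.9 in WT, 1182.3 and 1108.2 in P2KO, and 1506.8 and 1442.9 in DKO, and was higher in DKO than in P2KO (0.36, SE 0.0721, adjusted p = 0.00326). Among 29 other basement membrane and matrix genes 1 was called in each DKO comparison, Ecm1, a secreted matrix glycoprotein, at 0.50 against WT (SE 0.144, adjusted p = 0.0456) and 0.70 against P2KO (SE 0.146, adjusted p = 0.00557). These counts leave out 2 processing genes and 1 matrix gene that start in the interval of chromosome 4 around Padi2 and Padi4. Of these, Hspg2, the gene of the basement-membrane proteoglycan perlecan, was higher in P2KO than in WT (log2 fold change 0.62, SE 0.0943, adjusted p = 0.000115), in DKO than in WT (1.045, SE 0.0924, adjusted p = 3e-10) and in DKO than in P2KO (0.43, SE 0.0877, adjusted p = 0.00496). Plod1, a lysyl hydroxylase of collagens, was higher than in WT in both P2KO (0.79, SE 0.117, adjusted p = 8.33e-05) and DKO (0.84, SE 0.117, adjusted p = 8.43e-06), and P3h1, a collagen prolyl hydroxylase, was not called in any comparison (adjusted p from 0.512 to 0.961). For these genes of the interval, linked differences between the lines and loss of the targeted genes cannot be told apart. None of the 26 tested adhesion adaptors and other matrix receptors was called in any comparison.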

How the data were processed

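Testis RNA of 6 mice was sequenced, 2 per genotype (WT, P2KO and DKO), and groups and replicates were taken from the sample titles. Per the labels and the paper's methods, the authors used Trim Galore and cutadapt for trimming and STAR for alignment to GRCm38 and for counting; their deposited table holds whole-number counts per Ensembl gene, with no normalization; tool versions and the strand setting of the counts are not given in the sources used here. STAR leaves out reads that fall on more than 1 gene.

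The counts were fitted with edgeR 4.0.16 (R 4.3.3) on all 6 libraries, with genotype as the only term, TMM scaling, filterByExpr with a minimum count of 10, quasi-likelihood tests and Benjamini-Hochberg adjustment over the 20744 genes kept. The fit has 3 residual degrees of freedom, and the script was tested on simulated data. The authors used DESeq2; version 1.42.0 was an alternative here, beside other scalings, no filter, a prior count of 2, fits to 2 genotypes, a replicate block, a gene-length offset and leaving out each library. Normalized counts are TMM-scaled counts. Levels are CPM, on TMM-scaled library sizes, per kilobase of merged exons of GENCODE M21. Near-identical copies were sought with BLAST 2.17.0 (at least 95% identity over at least 150 bases and 50% of the shorter transcript). Genes that overlap a member were not left out of that search.

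Named members are those called, the 3 largest rises and falls per comparison at a mean of at least 50 counts, the highest and lowest of each role in WT, Fn1 and Itgb1, and any close to the adjusted p threshold (there was none); other members named for their values were chosen after those were seen. The members and gene lists were chosen with earlier results of these data known. Collagen and integrin genes left out by name or between 115 and 150 Mb of chromosome 4 were not analysed here, and genes of the other lists in that interval are left out of the lists' counts. The level of 1 laminin chain is not reported here.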

Additional observations from a re-analysis of the deposited data

How the results depend on the processing

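Col22a1 and Col2a1 were called lower in DKO against WT in every alternative that gave an adjusted p. The number of members called in DKO against WT was 2 throughout, except for 2 to 4 when each library was left out in turn: Fn1 and Lamc3 were added without WT replicate 1, and Col9a3 (-0.395, adjusted p = 0.0459) without WT replicate 2. In P2KO against WT the 1 call, Col12a1, became 0 with DESeq2 on all 6 libraries, with DESeq2 or edgeR on the 2 genotypes alone (adjusted p = 0.632 and 0.0686) and with the gene-length offset (0.414, adjusted p = 0.0725), and 0 to 1 when each library was left out. In DKO against P2KO the 3 calls became 1 with DESeq2 on the 2 genotypes alone, where Col2a1 and Col1a2 got no adjusted p, and 2 to 4 when each library was left out. Col1a2 was not called with DESeq2 on all 6 libraries (adjusted p = 0.0702). Col6a1 was called without the filter (adjusted p = 0.0459), with edgeR on the 2 genotypes alone (0.0335), and without WT replicate 1 (0.0273), WT replicate 2 (0.0199) or P2KO replicate 2.

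The replicate numbers are not said to mark a shared litter or day. Over all genes tested, deviations of same-numbered libraries correlated at -0.0572 (WT and P2KO), 0.0574 (WT and DKO) and -0.0502 (P2KO and DKO). Such a correlation could miss a shared litter or day that affects few genes, so no conclusion on sharing is drawn. With the replicate block the P2KO against WT count was 0 (Col12a1 adjusted p = 0.0765), and 0 with the block and the gene-length offset together (adjusted p = 0.111); the block changed no other count of members called.

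Of the named log2 fold changes, those that turned sign were Fn1 and Col22a1 in P2KO against WT, both near 0. Fn1 was 0.03 and became -0.0362 with the gene-length offset and -0.0359 with that offset and the replicate block, and ran from -0.142 (without WT replicate 2) to 0.202 with single libraries left out (-0.0801 without P2KO replicate 2). Col22a1 ran from -0.113 to 0.0606, the latter without WT replicate 1, and was 0.00257 without P2KO replicate 2. Under settings other than leaving out a single library, 511 of 522 values of the 50 named log2 fold changes kept their direction and side of the threshold. These settings include the fits to 2 genotypes, and values without an adjusted p were not counted. With single libraries left out, other uncalled values also moved: in DKO against P2KO Col6a5 ran from 0.275 to 0.714, Col6a2 from 0.224 to 0.47 and Col5a1 from -0.312 to -0.134, and in DKO against WT Col15a1 from 0.164 to 0.336 and Lama1 from 0.183 to 0.337.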
